A study of Mus musculus with 3 samples.

Results

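The 8 genes Hmgcs1, Idi1, Fdps, Fdft1, Sqle, Lss, Msmo1 and Insig1 were followed across the cell types of mouse ear skin. They were taken by name from 31053 genes in the files. The first 7 encode enzymes of cholesterol synthesis, and Insig1 encodes a protein that restrains the pathway. None of the 8 is a receptor or carrier that takes cholesterol up, so uptake is described from a separate list.

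Cells make cholesterol from acetyl-CoA through mevalonate, farnesyl diphosphate, squalene and lanosterol. When sterols run low in the endoplasmic reticulum, SCAP carries the transcription factor SREBP2 (gene Srebf2) to the Golgi, where it is cleaved, and the freed part raises transcription of the enzymes. When sterols are plentiful, INSIG proteins hold SCAP in the endoplasmic reticulum. In skin, cholesterol made by keratinocytes goes into the lipid layers of the epidermal barrier, and sebaceous cells also release sterols.

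Single-cell RNA libraries were made from ears of untreated mice: C57BL/6J wild type at 4 weeks (young WT, 5 males and 3 females), C57BL/6J wild type at 8 weeks (adult WT, 6 males and 4 females) and Langerin-DTA at 8 weeks (adult Lang-DTA, 4 males and 6 females). Langerin-DTA mice carry a transgene for diphtheria toxin A under Langerin regulatory sequence, which removes Langerhans cells, the dendritic cells of the epidermis. The labels speak of littermate controls from crosses of hemizygous males with wild-type females, but they call the adult WT library C57BL/6J and do not say whether its mice were such littermates; the colonies came from Jackson Laboratory stock. Each group was 1 library from 1 pool of mice, in which lymphatic endothelial, blood endothelial, CD45-positive and CD45-negative CD31-negative sorted cells had been mixed in equal parts. With 1 library per group no test was possible. Every interval below is an exact 95% counting interval, and it holds neither the spread between mice nor that between pools.

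The libraries held 124590777 to 137441575 unique molecular identifiers (UMIs, 1 per captured transcript), with medians of 7966 to 9568 per barcode. Of 40004 barcodes 37961 were kept, and 39 to 50 barcode sequences were shared between any 2 libraries. Cells were placed in 8 gates on raw UMIs: at least 3 of Col2a1 (type II collagen, of cartilage); at least 2 of Angptl7; at least 2 of Dpt (dermatopontin, of dermal fibroblasts); Krt5 and Krt14 at 0.3% of UMIs or more, split at 0.1% of Krt79 and Krt17 into follicle keratinocytes and other keratinocytes; at least 2 of Prox1 (lymphatic endothelium); at least 3 of Cdh5 and Ptprb with no Prox1 or Mmrn1 (blood endothelium); and at least 2 of Cd207 (Langerin, of Langerhans cells). The gates held 26106 cells, of which 1078 met more than 1 gate. Of Col2a1 cells 41.7% in young WT, 32.1% in adult WT and 39.7% in adult Lang-DTA met another gate. For Angptl7 cells these shares were 55.1%, 39.1% and 23.7%, and for Dpt cells 39.7%, 32.6% and 36.8%. UMIs were summed per gate and library and scaled to 1000000 UMIs (CPM), a level that can be compared between gates for a gene but not between genes.

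Markers of each cell type were looked up in the gates that carry its name. In the Col2a1 gate 8 of 9 chondrocyte markers were detected in every library, summing to 5046 to 5663 CPM, and Matn1 was at 0. All 6 markers of fibroblasts, of upper follicle keratinocytes, of basal keratinocytes and of lymphatic endothelium, and all 7 of blood endothelium, were detected in the Dpt, follicle keratinocyte, other keratinocyte, Prox1 and blood endothelial gates. Detected means any UMI in the summed cells of a gate, a low bar that does not by itself show what the cells are. In the Cd207 gate the 6 Langerhans cell markers summed to 38160 CPM in young WT and 40267 CPM in adult WT. That gate held 640 and 472 cells, and 10 in adult Lang-DTA, too few for a level. The Angptl7 gate has no single cell type to its name: perichondrial-type markers summed to 5699 to 6351 CPM and chondrocyte markers to 1399 to 2120 CPM. It overlapped the Col2a1 gate by 128 cells in young WT, 21 in adult WT and 46 in adult Lang-DTA.

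The members lie on 7 chromosomes (GRCm38, GENCODE M21), all as protein-coding genes. Hmgcs1 (ENSMUSG00000093930, chr13:119690379-119708260, plus strand) and Idi1 (ENSMUSG00000058258, chr13:8885501-8892451, plus) share chromosome 13. Fdps (ENSMUSG00000059743) is at chr3:89093588-89101959 on the minus strand, Fdft1 (ENSMUSG00000021273) at chr14:63145150-63179578 on the minus strand and Sqle (ENSMUSG00000022351) at chr15:59315077-59331192 on the plus strand. Lss (ENSMUSG00000033105) is at chr10:76531588-76557138 (plus), Msmo1 (ENSMUSG00000031604) at chr8:64718139-64733792 (minus) and Insig1 (ENSMUSG00000045294) at chr5:28071363-28078662 (plus). The end of Fdft1 overlaps Ctsb, on the other strand, by 774 bases, and Fdps overlaps Gm43738 on its own strand by 7512 bases. Strand use in the counting is not given in the sources used here, so reads of such pairs could be shared.

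Promoter windows of RefSeq starts (GRCm38.p6, 250 bases before to 50 after) were given for 5 of the 8 members: Insig1, Msmo1, Lss, Idi1 and Hmgcs1. They are shown because SREBP2 is known to act on genes of this pathway through sterol regulatory elements, with NF-Y and Sp1 beside it, and because members moved together below. The letters TCACNCCAC, a sterol regulatory element core, the shorter CACNCCAC inside it, CCAAT (NF-Y) and GGGCGG (Sp1) were searched on both strands, and every match is in capitals. Printed are Hmgcs1 (chr13:119690101-119690400, plus), Insig1 (chr5:28071162-28071461, plus) and Idi1 (chr13:8885356-8885655, plus), each 5′ to 3′.
Hmgcs1: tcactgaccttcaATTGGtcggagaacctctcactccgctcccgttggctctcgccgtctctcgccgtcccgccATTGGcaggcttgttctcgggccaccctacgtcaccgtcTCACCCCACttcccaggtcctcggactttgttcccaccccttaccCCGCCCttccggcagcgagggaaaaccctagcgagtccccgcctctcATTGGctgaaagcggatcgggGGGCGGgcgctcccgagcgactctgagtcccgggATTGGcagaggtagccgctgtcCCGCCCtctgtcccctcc
Insig1: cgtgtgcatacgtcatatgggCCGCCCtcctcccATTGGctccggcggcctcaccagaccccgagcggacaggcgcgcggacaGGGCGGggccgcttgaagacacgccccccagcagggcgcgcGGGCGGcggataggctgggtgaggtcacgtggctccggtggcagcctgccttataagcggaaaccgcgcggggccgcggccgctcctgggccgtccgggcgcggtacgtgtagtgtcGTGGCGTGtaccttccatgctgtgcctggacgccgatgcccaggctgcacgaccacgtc
Idi1: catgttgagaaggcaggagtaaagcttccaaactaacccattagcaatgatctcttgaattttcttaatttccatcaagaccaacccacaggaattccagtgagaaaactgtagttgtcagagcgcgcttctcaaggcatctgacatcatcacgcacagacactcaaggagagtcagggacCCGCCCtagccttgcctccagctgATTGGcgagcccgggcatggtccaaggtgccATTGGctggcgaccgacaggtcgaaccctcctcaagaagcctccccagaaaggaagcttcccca
The 9-letter TCACNCCAC was found in Hmgcs1 alone of the 5 (TCACCCCAC, starting 137 bases before the start), against 1.24% of 32851 promoter windows of the same length. CACNCCAC was found in Hmgcs1 and, on the other strand, in Insig1 (GTGGCGTG, 9 bases before the start), against 6.24% of windows. CCAAT was in all 5 windows (37.4% of all windows) and so was GGGCGG (35.7%), with 4 CCAAT matches in Hmgcs1 and 3 in Msmo1. A match in letters is a description and not a binding site.

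The sum over the 8 genes, of which Hmgcs1 made up 25.8 to 60.0%, was lowest in both endothelial gates in all 3 libraries. It was highest in Col2a1 cells and keratinocytes in young WT. Insig1 on its own was lower in other keratinocytes than in either endothelial gate in all 3 libraries. Summed over the 8, young WT held 843 CPM (823 to 863) in the Col2a1 gate, 673 CPM (610 to 741) in follicle keratinocytes and 630 CPM (619 to 641) in other keratinocytes, and the last 2 overlapped. Next came the Cd207 gate at 424 CPM, the Angptl7 gate at 388 CPM and the Dpt gate at 339 CPM. Blood endothelial cells at 154 CPM and Prox1 cells at 143 CPM were lowest.

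The order was another in adult WT, where follicle keratinocytes led at 679 CPM (632 to 729). Other keratinocytes at 509 CPM, Cd207 cells at 472 CPM and Col2a1 cells at 464 CPM (429 to 500) followed, and the interval of the Col2a1 cells overlapped that of the Cd207 cells. The Dpt gate was at 255 CPM and the Angptl7 gate at 192 CPM, with Prox1 and blood endothelial cells at 144 and 135 CPM, which overlapped. In adult Lang-DTA the sums were 626 CPM in follicle keratinocytes, 489 in other keratinocytes, 352 in Col2a1 cells, 261 in Dpt cells, 192 in Angptl7 cells, 164 in Prox1 cells and 144 in blood endothelial cells. Each gene is given on its own below.

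**Figure D1:**
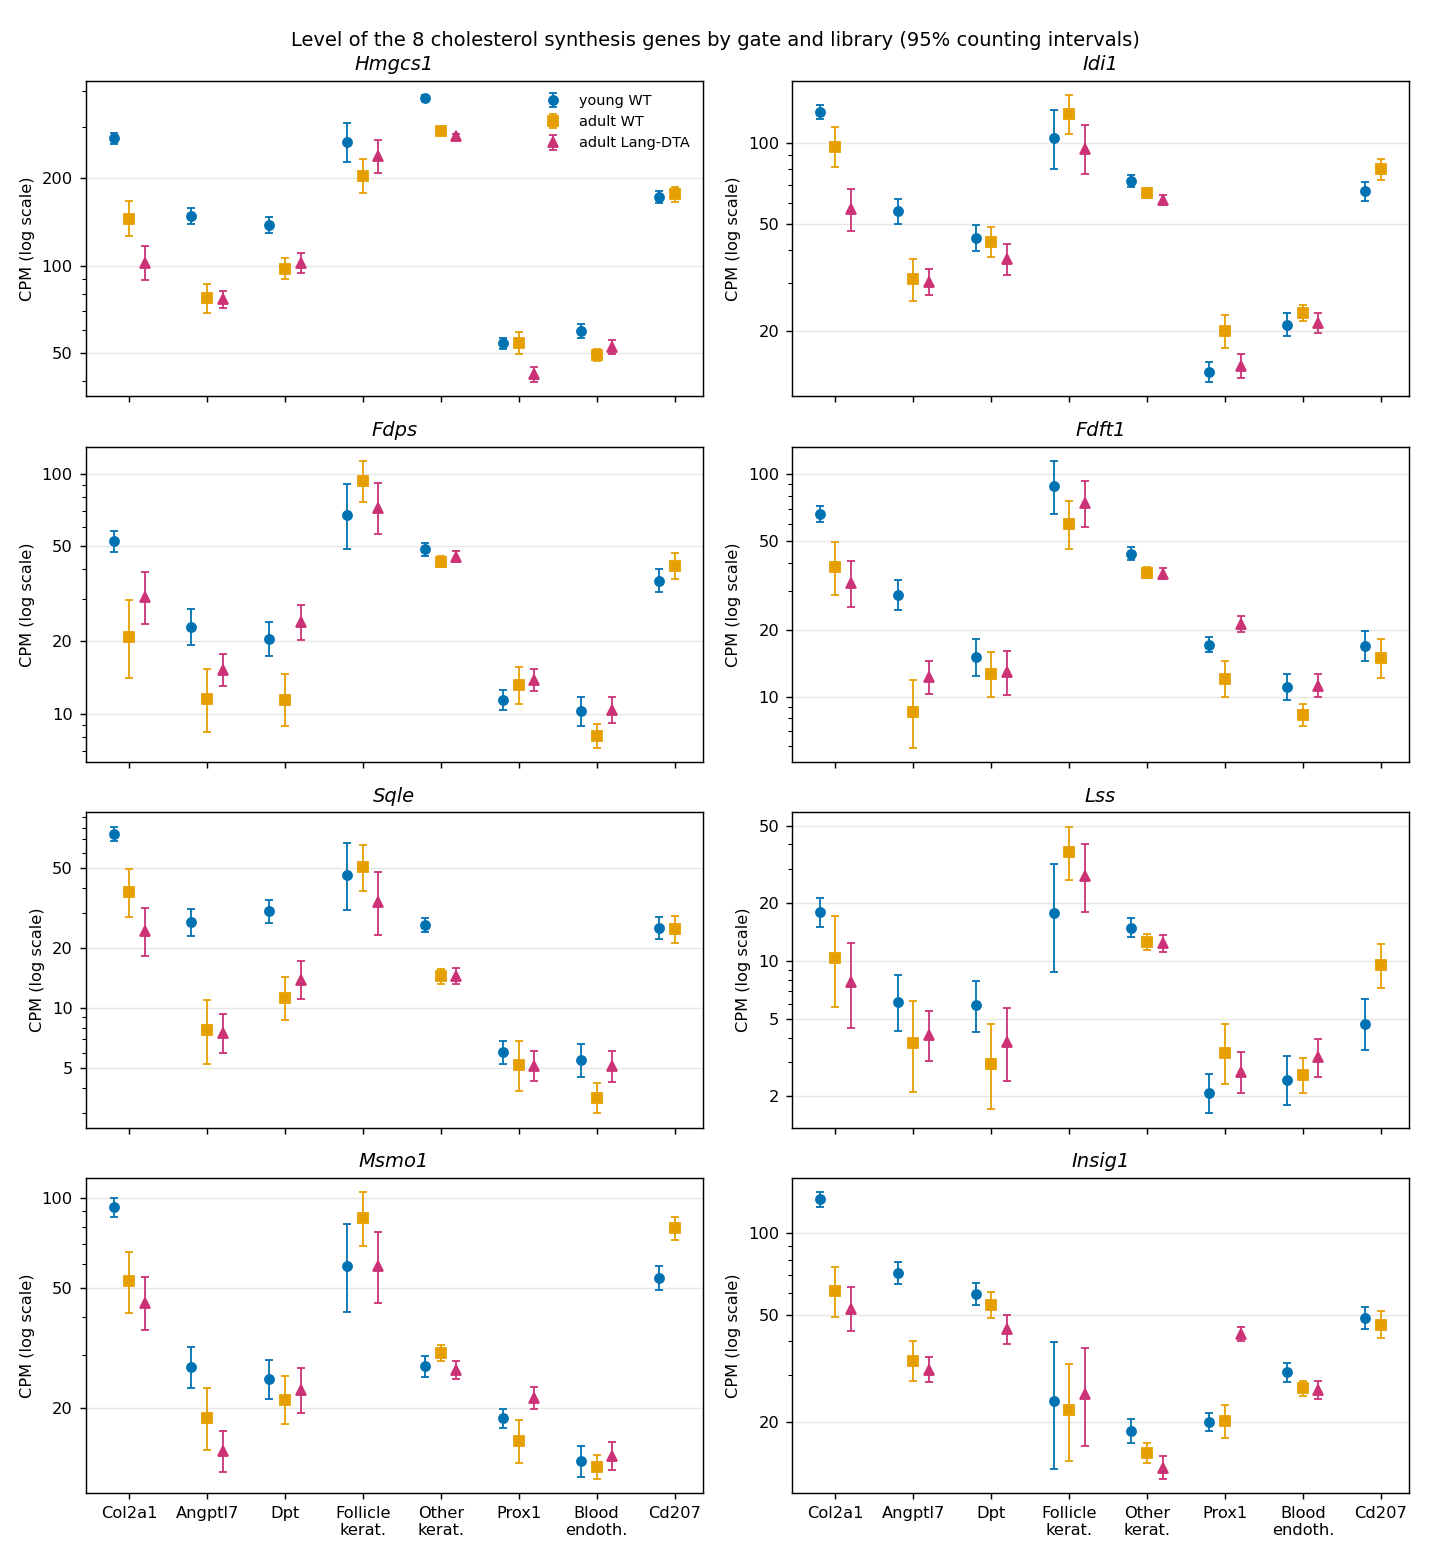
Level of each of the 8 genes (CPM, log axis) in the 8 gates for young WT (circles), adult WT (squares) and adult Lang-DTA (triangles); bars are 95% counting intervals from 1 library each. In the Col2a1 and Angptl7 gates all 8 young WT points lie above the adult WT points, for example Hmgcs1 at 275 and 146 CPM in the Col2a1 gate, while the Prox1 and blood endothelial points lie low for most genes.

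Insig1 did not follow the enzymes from gate to gate. Over the 23 combinations of gate and library with at least 50 cells, the enzymes correlated with each other on log2(CPM + 1) at Pearson r of 0.72 to 0.94, and Insig1 with them at -0.08 to 0.39. These points share libraries, cells in overlapping gates and depth, so the values are a description. In other keratinocytes Hmgcs1 was at its highest of all gates, 378 CPM in young WT, 292 in adult WT and 279 in adult Lang-DTA, while Insig1 was at 18.5, 15.4 and 13.6 CPM. In Col2a1 cells of young WT Insig1 was at 134 CPM, its highest level in any gate and library.

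The age comparison set adult WT against young WT, 8 weeks against 4 weeks. In Col2a1 cells 7 of 8 members were at least 1.5-fold lower in adult WT, the size used for a call here, and 10.5% of 9151 genes tested were lower by as much. None of the 8 was higher, beside 8.38% of genes. The median of the 8 log2 ratios was -0.87, against -0.07 over all genes tested. In Angptl7 cells 6 of the 7 members that passed the floor on low values (a mean of 10 CPM and 50 UMIs in the pair) were lower by 1.5-fold, beside 5.03% of 9220 genes, and none was higher, beside 6.43%. There the median over all 8 was -0.97, beside -0.04 over all genes.

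The members are taken here in the order of the pathway. Hmgcs1, the cytosolic HMG-CoA synthase, was at 275 CPM in young WT, 146 in adult WT and 102 in adult Lang-DTA in Col2a1 cells, a log2 ratio of -0.92 for age (-1.13 to -0.71). In Angptl7 cells it was at 149, 77.3 and 76.9 CPM, a log2 ratio of -0.94 (-1.13 to -0.75). Young WT stood above both adult libraries in both gates, with intervals that did not overlap.

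Idi1 interconverts isopentenyl and dimethylallyl diphosphate, the building blocks of isoprenoids. In Col2a1 cells it was at 131 CPM in young WT, 97.0 in adult WT and 56.7 in adult Lang-DTA. Its age difference there, a log2 ratio of -0.43 (-0.70 to -0.17), was the only one of the 8 short of 1.5-fold. In Angptl7 cells it was at 55.6, 31.0 and 30.4 CPM, a log2 ratio of -0.84 (-1.15 to -0.54).

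Fdps makes farnesyl diphosphate, from which sterols, dolichol and prenyl groups all branch. It was at 52.3 CPM in young WT, 20.8 in adult WT and 30.6 in adult Lang-DTA in Col2a1 cells, where the log2 ratio of -1.33 (-1.92 to -0.80) was the lowest of the 8 for age. The adult WT value rests on 30 UMIs. In Angptl7 cells it was at 23.1, 11.5 and 15.3 CPM, a log2 ratio of -1.004 (-1.52 to -0.51). Young WT was highest in both gates, and the intervals of the adult libraries overlapped.

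Fdft1, squalene synthase, commits farnesyl diphosphate to sterols. In Col2a1 cells it was at 66.4 CPM in young WT, 38.1 in adult WT and 32.5 in adult Lang-DTA, a log2 ratio of -0.80 for age (-1.23 to -0.40). In Angptl7 cells it was at 28.7, 8.51 and 12.2 CPM, a log2 ratio of -1.76 (-2.33 to -1.22). The overlapping gene Ctsb, a lysosomal protease, was at 388, 349 and 362 CPM in the same cells. Between the wild-type libraries it differed less than Fdft1 as a ratio, but more in CPM. Whether the 2 genes shared reads was not tested.

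Sqle, squalene epoxidase, puts in the first oxygen and is a control point of the pathway. It was at 74.5 CPM in young WT, 38.1 in adult WT and 24.2 in adult Lang-DTA in Col2a1 cells, a log2 ratio of -0.97 (-1.39 to -0.57). In Angptl7 cells the levels were 26.9, 7.76 and 7.51 CPM, and the log2 ratio of -1.79 (-2.40 to -1.23) was the lowest there; the adult WT value rests on 31 UMIs. Sqle was also the only member 1.5-fold lower in other keratinocytes, as given further on.

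Lss closes the ring to lanosterol, and Msmo1 takes methyl groups off carbon 4 of the sterol. Lss was sparse: 17.9 CPM in young WT, 10.4 in adult WT and 7.77 in adult Lang-DTA in Col2a1 cells, with a log2 ratio of -0.78 whose interval reached -0.01, and 6.15, 3.75 and 4.16 CPM in Angptl7 cells, under the floor. Msmo1 was at 92.9, 52.7 and 44.8 CPM in Col2a1 cells, a log2 ratio of -0.82 (-1.18 to -0.48). In Angptl7 cells Msmo1 was at 27.4, 18.5 and 14.4 CPM, a log2 ratio of -0.57 (-0.98 to -0.16), just short of 1.5-fold.

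Insig1, the brake, was lower with the enzymes. In Col2a1 cells it was at 134 CPM in young WT, 60.99 in adult WT and 52.6 in adult Lang-DTA, a log2 ratio of -1.13 (-1.46 to -0.82). In Angptl7 cells it was at 71.2, 33.8 and 31.3 CPM, a log2 ratio of -1.08 (-1.37 to -0.79). Per Hmgcs1 UMI, Insig1 stood at 0.486 in young WT and 0.419 in adult WT in the Col2a1 gate, and at 0.479 and 0.437 in the Angptl7 gate.

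**Figure D2:**
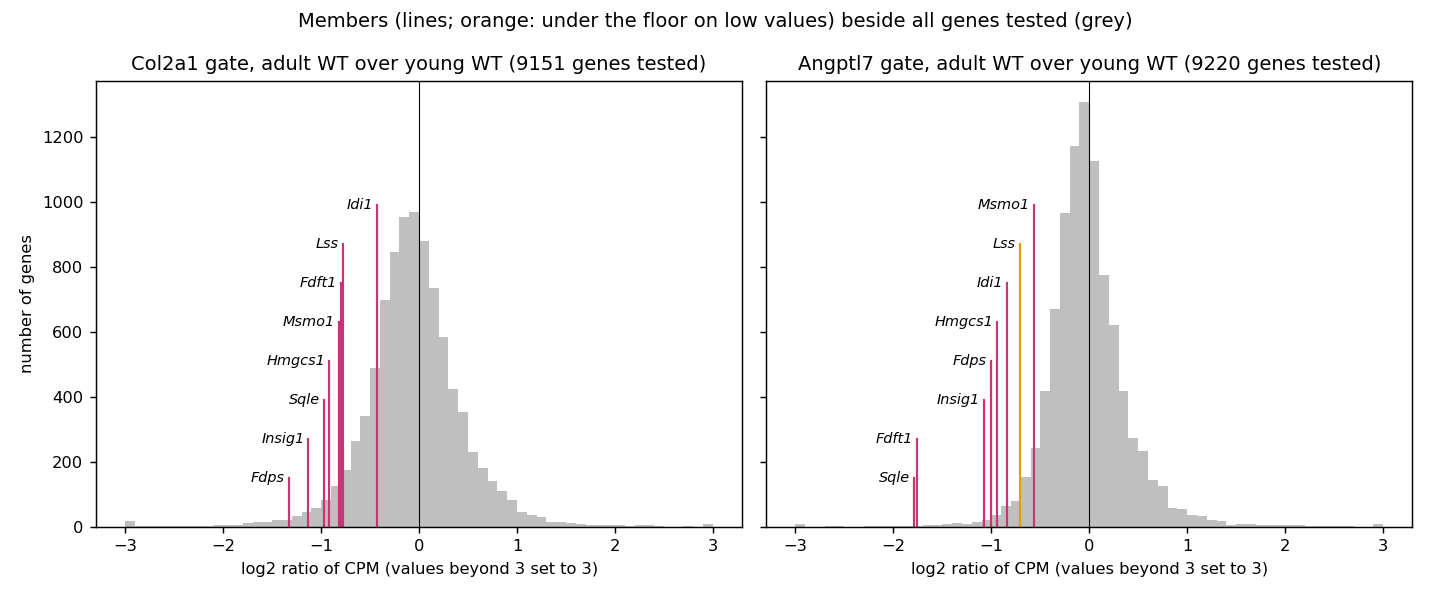
Histograms of the log2 CPM ratio of adult WT over young WT for all genes tested in the Col2a1 gate (9151 genes) and the Angptl7 gate (9220 genes), with a line for each member; the orange line is Lss, under the floor in the Angptl7 gate. All lines lie left of 0, from -1.33 to -0.43 in the Col2a1 gate and from -1.79 to -0.57 in the Angptl7 gate.

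The Col2a1 gate was opened by a gene that itself differed with age: it held 499 cells in young WT, 109 in adult WT and 194 in adult Lang-DTA. A gate chosen after the data were seen, on at least 5 summed UMIs of 7 other cartilage genes (Acan, Col9a1, Col9a2, Col11a1, Hapln1, Cnmd and Matn1), held 916, 498 and 1010 cells, in which Col2a1 was at 852, 199 and 156 CPM. It took in 494, 109 and 193 of the Col2a1 cells, so it was not a separate set of cells. These cells made up a larger share of it in young WT than in the adult libraries. In that gate all 8 members were at least 1.5-fold lower in adult WT than in young WT. The median log2 ratio was -1.004, and 4.28% of 9336 genes were lower by as much. There Hmgcs1 was at 237, 115 and 97.3 CPM, Sqle at 61.9, 21.3 and 15.8 CPM and Insig1 at 111, 48.1 and 40.3 CPM.

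Other measures moved with these age differences. The median UMI count per Col2a1 cell was 14883 in young WT, 12324 in adult WT and 9668 in adult Lang-DTA, and per Angptl7 cell 16920.5, 12674 and 11551. Thinning each cell to 3000 UMIs left a median log2 ratio of -0.73 in Angptl7 cells, with 1 member above the floor lower by 1.5-fold. How many members passed the floor after thinning is not reported here, nor is the share of all genes lower. Col2a1 cells of adult WT were then 34, too few. Chondrocyte markers summed to 2120 CPM in young WT, 1515 in adult WT and 1399 in adult Lang-DTA within the Angptl7 gate. The 6 Langerhans cell markers summed to 1078, 631 and 278 CPM in Angptl7 cells and to 896, 496 and 501 CPM in Col2a1 cells, where Cd74 went from 175 to 3.47 CPM with age. With cells of more than 1 gate left out, the age medians were -0.96 in Col2a1 cells and -0.86 in Angptl7 cells.

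The sexes were not mixed alike in the libraries, so cells were called male or female from Y-linked transcripts and Xist. In the gate on other cartilage genes the age median was -1.08 in male-called cells, with 8 of 8 members at least 1.5-fold lower beside 6.68% of genes, and -1.13 in female-called cells, with 7 of 8 beside 6.77% of genes. In Angptl7 cells it was -1.59 in male-called cells, with 7 of 7 tested members lower beside 7.64% of genes, and -0.46 in female-called cells, with 3 of 7 beside 8.81% of genes. Summed over the members, male-called Angptl7 cells were at 465 CPM in young WT and 168 in adult WT, and female-called cells at 303 and 217 CPM. Both sexes were lower in the adult; whether the sexes differ in size was not tested.

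**Figure D3:**
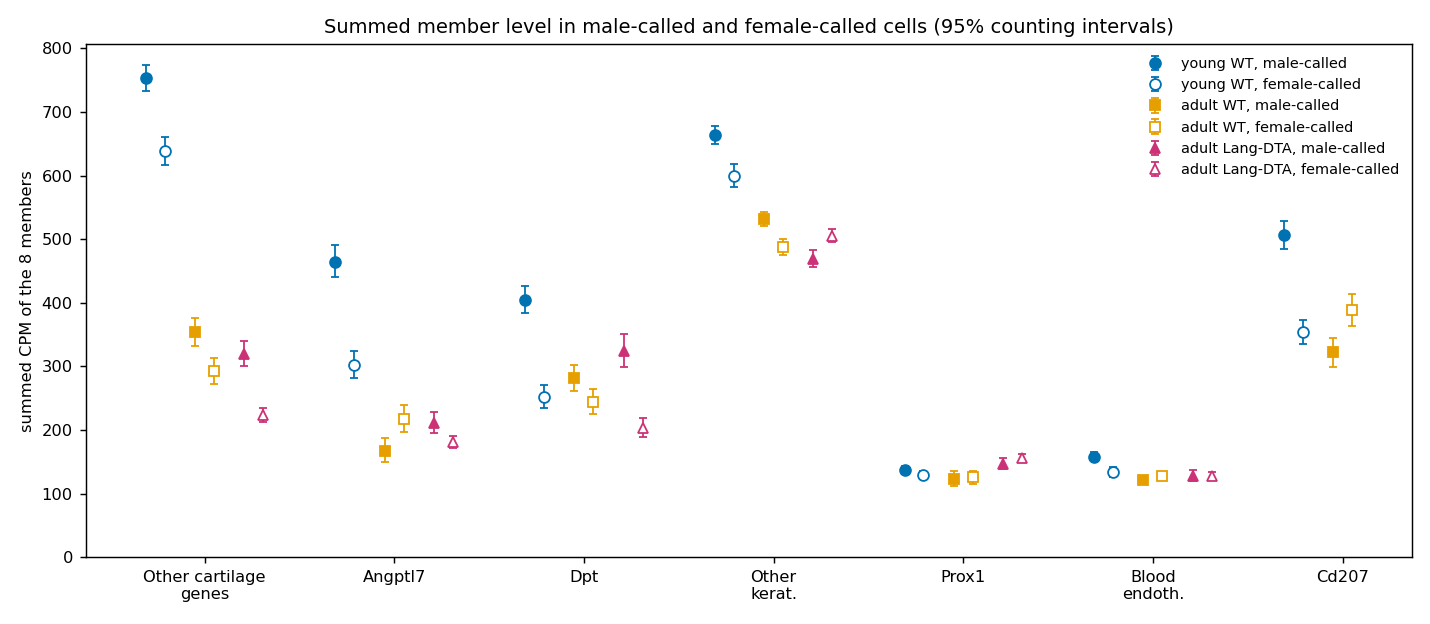
Summed CPM of the 8 genes (linear axis from 0) in male-called (filled) and female-called (open) cells of 7 gates, with 95% counting intervals; the first gate is that on other cartilage genes. Young WT cells of both sexes lie above both adult libraries in the cartilage gate, at 753 and 639 CPM against 354 and 292 CPM in adult WT, while the male-called cells alone are lower with age in the Cd207 gate.

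In Dpt cells, gated on a gene of dermal fibroblasts, the age difference was smaller. There 2 of 7 tested members were 1.5-fold lower, beside 8.23% of 9280 genes, and none higher, beside 5.37%. The median over 8 was -0.37, beside -0.11 over all genes. Sqle was at 30.6 CPM in young WT, 11.3 in adult WT and 13.9 in adult Lang-DTA, a log2 ratio of -1.44 (-1.86 to -1.04). It was -1.97 in male-called and -0.45 in female-called cells. In male-called cells 2 of 7 tested members were 1.5-fold lower, beside 10.1% of 9212 genes, and in female-called cells none of 7, beside 13.7% of 9154 genes. The log2 ratio of the summed members was -0.52 (-0.65 to -0.39) in male-called and -0.04 (-0.20 to 0.11) in female-called cells. Fdps was at 20.5, 11.5 and 24.1 CPM, a log2 ratio of -0.84 (-1.28 to -0.42). Idi1, at 44.3 and 42.9 CPM, and Insig1, at 59.6 and 54.3 CPM, were close to level between the ages.

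In keratinocytes most members were within 1.5-fold of their young level. In other keratinocytes 1 of 8 members was 1.5-fold lower with age, beside 3.06% of 8785 genes, and none was higher, beside 3.93%. The median was -0.26, beside -0.09 over all genes. That member was Sqle, at 26.1 CPM in young WT, 14.5 in adult WT and 14.5 in adult Lang-DTA, a log2 ratio of -0.85 (-1.03 to -0.67). Hmgcs1 there, at 378 and 292 CPM, had a log2 ratio of -0.37 (-0.41 to -0.33), past its counting error and short of 1.5-fold. Follicle keratinocytes, with 51 cells in young WT and 78 in adult WT, had no member 1.5-fold lower, beside 12.1% of 5718 genes. Lss was higher there, beside 10.4% of genes, at 17.6 and 36.4 CPM, a log2 ratio of 1.05 (0.06 to 2.16). Members short of 1.5-fold went both ways in follicle keratinocytes. Hmgcs1 was at 266 and 204 CPM and Fdft1 at 88.1 and 59.5 CPM, while Fdps was at 67.3 and 93.3 CPM and Msmo1 at 59.3 and 85.3 CPM.

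Endothelial and Langerhans cells showed no tested member past 1.5-fold with age. None of 6 was lower or higher in Prox1 cells, beside 4.85% of 9018 genes lower and 5.82% higher. None of 4 was so in blood endothelial cells (3.91% of 8822 genes lower and 3.66% higher) and none of 7 in Cd207 cells (4.83% of 8121 genes lower and 5.58% higher). Under the floor, Sqle was at 5.52 and 3.56 CPM in blood endothelial cells and Lss at 4.75 and 9.52 CPM in Cd207 cells. Hmgcs1 was at 54.2 CPM in young WT and 54.3 in adult WT in Prox1 cells, at 59.6 and 49.4 CPM in blood endothelial cells and at 173 and 176 CPM in Cd207 cells. Msmo1 in Cd207 cells, at 54.1 and 79.2 CPM, had a log2 ratio of 0.55 (0.37 to 0.73). In Cd207 cells the age median was -0.70 in male-called cells, with 5 of 7 tested members 1.5-fold lower beside 7.96% of 8041 genes, and 0.03 in female-called cells, with none beside 8.78% of 7917 genes; the difference between the sexes was not tested.

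Over all gates 16 of 54 tested pairs of member and gate were 1.5-fold lower with age and 1 was higher. By gate, 3.06 to 12.1% of genes were lower by as much and 3.66 to 10.4% higher. Some gates, the Col2a1 and Angptl7 gates among them, share cells, so the pairs are not independent. Sqle was lower in 4 gates, Fdps in 3, Hmgcs1, Fdft1 and Insig1 in 2 each, and Idi1, Lss and Msmo1 in 1 each. Of the pairs near the threshold, Fdft1 in follicle keratinocytes (-0.57) and Msmo1 in Angptl7 cells (-0.57) fell just short of it.

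**Figure D4:**
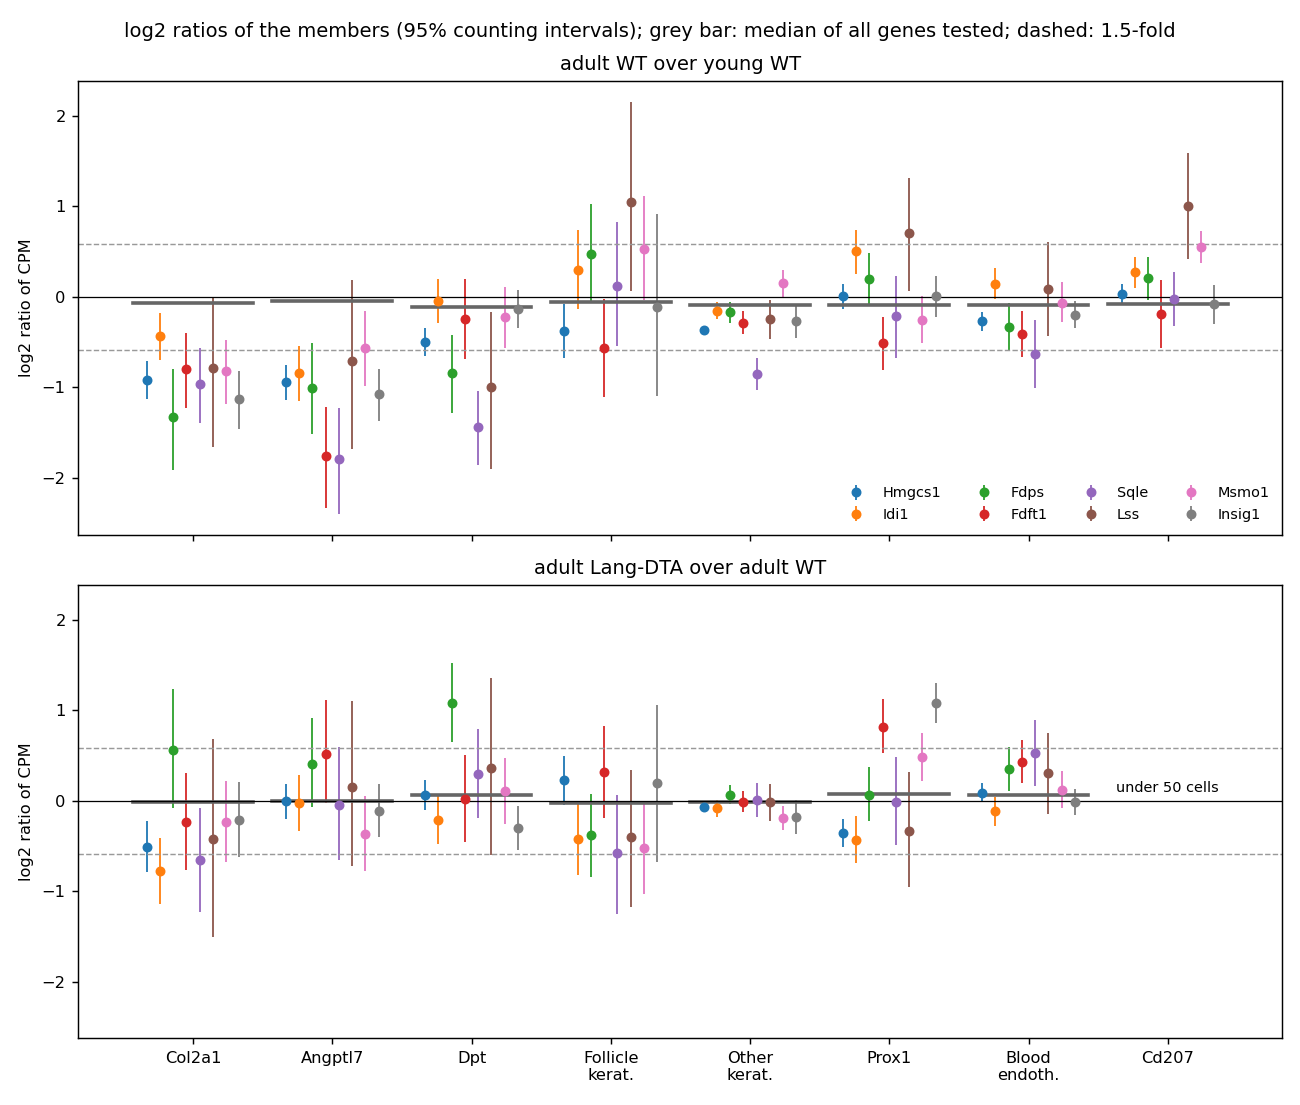
log2 CPM ratios of the 8 members by gate, adult WT over young WT (top) and adult Lang-DTA over adult WT (bottom), with 95% counting intervals; grey bars are the median of all genes tested and dashed lines mark 1.5-fold. In the top panel 7 members in the Col2a1 gate and 7 in the Angptl7 gate, Lss under the floor among them, lie beyond the lower dashed line, and in the bottom panel most lie between the lines.

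Genes around the 8 in the pathway were taken from lists. Among 14 other sterol enzymes 12 were tested in Col2a1 cells. Of these 6 were 1.5-fold lower with age and 1 higher, beside 10.5% of genes lower and 8.38% higher. Sc5d, a sterol desaturase, was at 54.8 CPM in young WT and 24.3 in adult WT (-1.17), and Cyp51, the lanosterol demethylase, at 150 and 88.7 CPM (-0.76). In Angptl7 cells 3 of 8 tested were 1.5-fold lower, beside 5.03% of genes. Sc5d and Cyp51 were among them, at log2 ratios of -0.65 and -0.87.

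Both of the next intervals include 0. Nsdhl, a sterol dehydrogenase, was at 15.7 and 9.01 CPM in Col2a1 cells (-0.80, interval -1.75 to 0.03). Dhcr7, which makes cholesterol from its last precursor, was the 1 that was higher, at 8.81 and 14.6 CPM, with an interval of -0.05 to 1.45.

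Of 9 tested genes of the uptake list 1 was 1.5-fold higher with age in Angptl7 cells and none in Col2a1 cells. The shares over all genes were 6.43% and 8.38%. Scarb1, a receptor for high-density lipoprotein, was the higher one, at 18.1 CPM in young WT and 38.5 in adult WT, a log2 ratio of 1.09 (0.73 to 1.46).

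Genes of the control machinery were counted as well. Srebf2 was at 135 and 99.8 CPM in Col2a1 cells (-0.44, interval -0.70 to -0.18) and at 92.8 and 62.1 CPM in Angptl7 cells (-0.58, interval -0.80 to -0.36), both short of 1.5-fold. Of 6 genes of the SREBP machinery 1 was lower in Col2a1 cells, Scap at 28.6 and 15.9 CPM (-0.84), and none in Angptl7 cells. Over all genes 10.5% and 5.03% were lower in these gates, and 1 of 6 is not far from such a share. Of 5 tested genes for efflux and storage none was lower in either gate. Apoe, which carries cholesterol out of cells, was higher in both: 1766 and 2941 CPM in Col2a1 cells, 443 and 723 CPM in Angptl7 cells.

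Fatty acid genes, many of them SREBP targets as well, were counted in both gates. In Col2a1 cells 5 of 11 were 1.5-fold lower and 1 higher, beside 10.5% of genes lower and 8.38% higher. Scd2 was at 138 and 70.7 CPM (-0.97) and Fasn, the fatty acid synthase, at 51.6 and 29.1 CPM (-0.83). Fads1 was at 33.3 and 19.4 CPM (-0.78) and Fads2 at 24.3 and 15.9 CPM (-0.61). Acly, which makes cytosolic acetyl-CoA, was at 73.7 and 46.4 CPM (-0.67), and Acss2, which does so from acetate, was the higher one at 16.1 and 25.6 CPM. In Angptl7 cells none of the 11 passed 1.5-fold, beside 5.03% of genes lower and 6.43% higher, with a median of -0.22. In the branch from farnesyl diphosphate to dolichol and prenyl groups 2 of 7 were lower in Col2a1 cells, beside 10.5% of genes. They were Fntb (-0.97, from 13.5 and 6.93 CPM) and Nus1 (-0.63, from 50.5 and 32.6 CPM). None of the branch was lower in Angptl7 cells, beside 5.03% of genes.

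**Figure D5:**
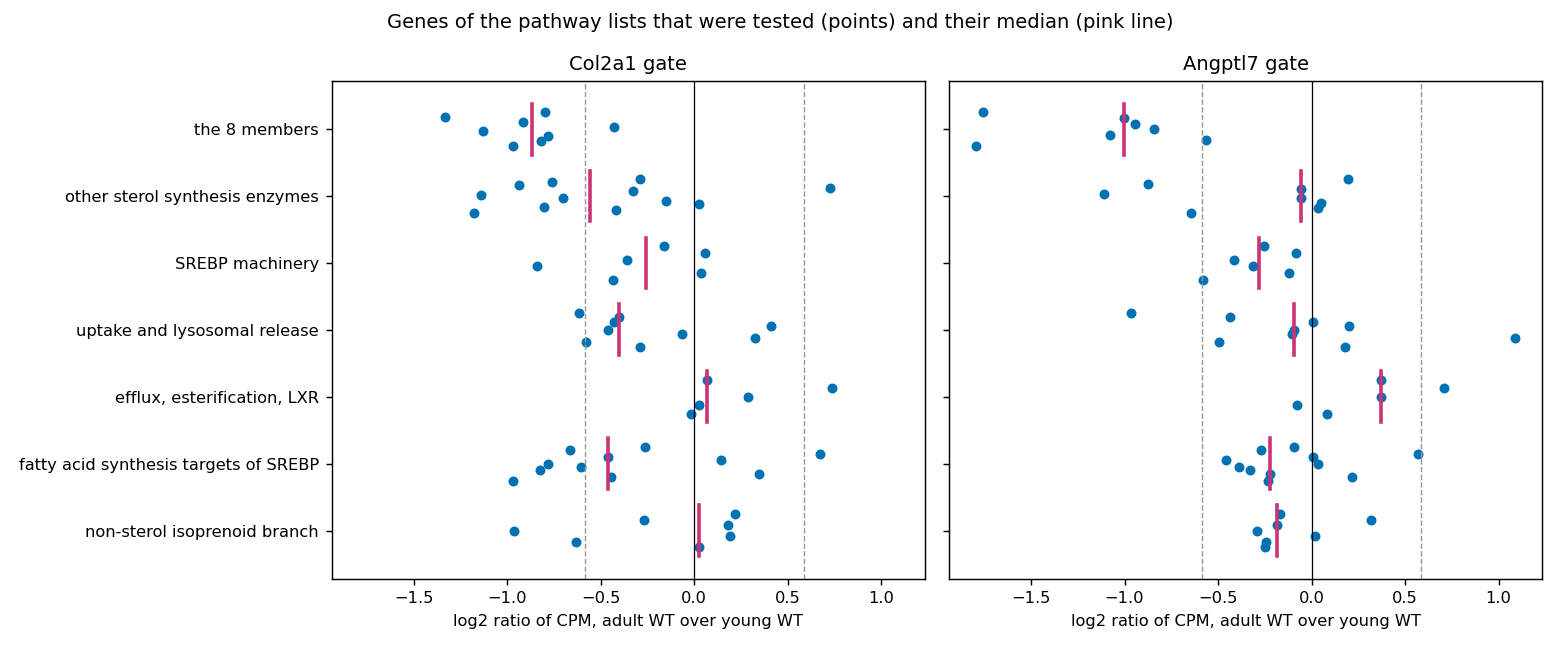
log2 CPM ratio of adult WT over young WT for each tested gene of 7 pathway lists (points) in the Col2a1 and Angptl7 gates, with the list median (pink line) and dashed lines at 1.5-fold. The members have the lowest median in both gates, -0.87 and -1.004 over those tested, followed in the Col2a1 gate by the other sterol enzymes at -0.56.

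The genotype comparison set adult Lang-DTA against adult WT and so shares the adult WT library with the age comparison. Of 45 tested pairs of member and gate 2 were at least 1.5-fold lower and 3 higher, and no gate had more than 2 members past that size. By gate, 0.345 to 15.9% of genes were lower by as much and 0.633 to 21.4% higher. In Col2a1 cells the lower members numbered 5 without called doublets and 4 in cells of 1 gate only. The shares over all genes under these settings are not reported here, and those given next are of the main analysis. The 2 lower pairs were in Col2a1 cells, beside 3.86% of 8151 genes lower and 5.14% higher: Idi1, at 97.0 CPM in adult WT and 56.7 in adult Lang-DTA (-0.78, interval -1.14 to -0.42), and Sqle, at 38.1 and 24.2 CPM (-0.65, interval -1.23 to -0.08). The median of the 8 there was -0.33, beside -0.02. In the gate on other cartilage genes Idi1 was at -0.36 and Sqle at -0.44, both short of 1.5-fold, and 1 of the members was lower beside 2.03% of 9252 genes.

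In Angptl7 cells none of 6 tested members was 1.5-fold lower or higher in adult Lang-DTA, beside 1.98% and 1.47% of 9195 genes, and the median was -0.02. The sum over the 8 was 192 CPM in both libraries. Within the sexes the median was 0.53 in male-called cells and -0.41 in female-called cells; adult Lang-DTA held 228 male-called and 604 female-called Angptl7 cells, and adult WT 140 and 138.

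In Prox1 cells, the lymphatic endothelium, Insig1 was higher in adult Lang-DTA. It was at 20.02 CPM in young WT, 20.1 in adult WT and 42.3 in adult Lang-DTA, a log2 ratio of 1.07 for genotype (0.85 to 1.30), while both wild-type libraries were level. Fdft1 was at 17.1, 12.04 and 21.2 CPM, a log2 ratio of 0.82 (0.53 to 1.12). Hmgcs1, at 54.3 CPM in adult WT and 42.3 in adult Lang-DTA, and Idi1, at 19.9 and 14.8 CPM, were lower by less than 1.5-fold, so that Insig1 per Hmgcs1 UMI went from 0.370 to 1. These 2 members of 6 tested stand beside 21.4% of 9048 genes higher and 15.9% lower by 1.5-fold, so many other genes differed as much.

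Much else differed between the Prox1 cells of these libraries. Cycling cells were 4.64% in young WT, 1.79% in adult WT and 10.9% in adult Lang-DTA, the 6 lymphatic markers summed to 9675, 13335 and 5552 CPM, and the median UMI count was 7992, 5171 and 9496. All 8 immediate early genes were at least 1.5-fold lower in adult Lang-DTA than in adult WT, beside 15.9% of genes. With cycling cells left out the Insig1 log2 ratio was 1.14, after thinning to 3000 UMIs it was 1.24, and it was 1.21 in male-called and 0.997 in female-called cells. Whether the lymphatic markers or immediate early genes had a part in it was not tested.

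In Dpt cells Fdps was the 1 member past 1.5-fold, at 11.5 CPM in adult WT and 24.1 in adult Lang-DTA (1.07, interval 0.64 to 1.52), beside 4.56% of 9194 genes higher and 2.76% lower. It was 1.30 in male-called and 0.31 in female-called cells, and 0.69 without called doublets. None of the members passed 1.5-fold in follicle keratinocytes (5.8% of 6190 genes lower and 5.07% higher), in other keratinocytes (0.345% and 0.633% of 8693 genes) or in blood endothelial cells (0.569% and 2.0% of 8781 genes). The medians were -0.39, -0.04 and 0.21. In other keratinocytes Hmgcs1 was at 292 CPM in adult WT and 279 in adult Lang-DTA, and Msmo1 at 30.6 and 26.8 CPM.

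Srebf2 stayed within 1.5-fold between adult Lang-DTA and adult WT in all 7 gates. Its log2 ratios ranged from -0.40 in Col2a1 cells to 0.10 in follicle keratinocytes.

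Among the genes whose levels ran most like the mean of the 8 over the 23 combinations of gate and library were Cyp51 (Pearson r of 0.91 on log2(CPM + 1)), Pcyt2 (0.90), Acot1 (0.89), Tmem41b (0.87), Srebf2 (0.87), Hr (0.86), Erg28 (0.85), Prkcd (0.85) and Ttc7 (0.84), out of 7571 genes with a mean of at least 20 CPM. Cyp51 and Srebf2 are on the pathway lists. Lipa, the lysosomal lipase, ran the other way at -0.75 and was looked up after the values were seen, as it is on the uptake list.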

How the data were processed

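Counts of UMIs per gene and called barcode were deposited by the authors for each library as raw values. The submitters' processing notes name Cell Ranger 8.01 and GRCm38, and the matrix header gives the version as 8.0.1, per the file headers, for 10x Genomics 3′ v4 libraries. Strand and intron settings, the annotation release and ambient RNA removal were not given in the sources used here. The labels' protocols name about 30000 reads per cell, 29000 cells loaded and 20000 aimed at.

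Barcodes with at least 500 genes, 1000 UMIs and at most 10% mitochondrial UMIs were kept. Doublets were called from simulated doublets (4.96 to 5.18% of cells per library) and left out only as an alternative. UMIs were summed per gate and library, where at least 50 cells were present, with exact Poisson intervals for levels and exact conditional intervals for ratios. No p-value was computed, since 1 library per group leaves no replicate. A gene counted as different at 1.5-fold with a mean of 10 CPM and 50 UMIs in the pair. The ratio step was tested on simulated data.

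The members, the 17 marker lists and the 8 other pathway lists were chosen with earlier results of these data known. Outside the members, genes were named where tested and past 1.5-fold, at most 6 per list, in gates with at least 4 of 8 members past 1.5-fold, and Srebf2 always. Some genes that meet this rule are not reported here. Alternatives were another scaling (median of ratios), all barcodes, cells of 1 gate, doublets or cycling cells left out, equal cell weights, each sex, doubled thresholds, thinning, a 2-fold call and no floor. The gate on other cartilage genes was added after the data were seen. The scripts ran in Python 3.11.15 with matplotlib 3.10.9, scikit-learn 1.9.0, scipy 1.17.1, numpy 2.4.6 and pandas 2.3.3.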

Additional observations from a re-analysis of the deposited data

Results flagged for a closer look

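Lss, the enzyme that makes lanosterol, went opposite ways with age in 2 gates. In follicle keratinocytes it was at 17.6 CPM in young WT and 36.4 CPM in adult WT, a log2 ratio of 1.05 (0.06 to 2.16), and in Col2a1 cells at 17.9 and 10.4 CPM, a log2 ratio of -0.78 (-1.66 to -0.01). Both were past 1.5-fold, and the difference was not tested. The follicle gate held 51 and 78 cells.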

How the results depend on the processing

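The intervals cover counting error only, and with 1 pool per group the spread between mice and pools is not known. The smallest gate was that of follicle keratinocytes, with 51 cells in young WT. Of 139 medians over the members recomputed under the alternatives 124 moved by less than their counting error and 15 moved by more. None of the called values changed sign, but some medians short of 1.5-fold did. In the main analysis the age median was positive in Cd207 cells and close to level in Prox1 cells. The main genotype medians were slightly negative in Angptl7 cells and in other keratinocytes. Of 1112 values of single members 940 stayed within it. Medians that moved for age were, in Prox1 cells, -0.24 without called doublets, -0.18 with equal cell weights and -0.26 after thinning to 3000 UMIs; in Cd207 cells -0.13 with equal weights, -0.70 in male-called cells and -0.42 after thinning; in Angptl7 cells -1.59 in male-called and -0.46 in female-called cells; -0.37 in male-called blood endothelial cells; and -1.40 in female-called Col2a1 cells. For genotype they were 0.53 in male-called and -0.41 in female-called Angptl7 cells, -0.24 and 0.10 in male-called and female-called other keratinocytes, and 0.49 in Prox1 cells after thinning. The cause was not tested.

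Counts of members lower with age became 3 in female-called and 1 in thinned Angptl7 cells, and 2 in Col2a1 cells at 2-fold. Over all gates, pairs lower with age numbered 15 in male-called cells (9 in the main analysis over the same 6 gates). By gate, 3.70 to 10.1% of genes were lower in male-called cells, and 3.06 to 8.23% in the main analysis of these 6 gates. Pairs lower with age numbered 5 after thinning, with 29 pairs tested, and 7 at 2-fold. For the other counts of pairs in this paragraph the shares over all genes are not reported here. Pairs higher with age numbered 3 with median-of-ratios scaling, 1 with cells of 1 gate, 1 without called doublets, 2 with equal weights, 1 with doubled thresholds, 0 after thinning and 3 with no floor. For genotype, pairs lower numbered 4 with cells of 1 gate, 6 without called doublets, 5 without cycling cells, 2 after thinning and 0 at 2-fold, and pairs higher 6 in male-called cells. In Col2a1 cells the genotype count of 2 lower members became 4, 5, 1, 0 and 1 with cells of 1 gate, without called doublets, in female-called cells, at 2-fold and in the gate on other cartilage genes. In female-called cells 4 members were tested, and 6.16% of 5939 genes were lower. In the gate on other cartilage genes 2.03% of 9252 genes were lower. For the other Col2a1 counts the shares over all genes are not reported here. Median-of-ratios scaling shifted the genes of Dpt cells by 0.11 with age, to a member median of -0.26.

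Gates with fewer than 50 cells in a library gave no value, among them male-called and thinned Col2a1 cells of adult WT (46 and 34) and follicle keratinocytes of young WT in cells of 1 gate (48), without called doublets (49), without cycling cells (48), with doubled thresholds (20) and in each sex (34 and 14). No paired analysis was possible because each group is 1 library.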

Other observations

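The genes in these paragraphs were chosen after their values were seen. In follicle keratinocytes 3 of 7 tested genes of the fatty acid list were at least 1.5-fold higher in adult Lang-DTA than in adult WT and 1 lower, beside 5.07% and 5.8% of 6190 genes. Of 6 tested genes for efflux and storage 2 were higher and none lower. Scd1, a desaturase that makes monounsaturated fatty acids, was at 46.2 and 494 CPM, Elovl6, a fatty acid elongase, at 29.3 and 165 CPM, and Soat1, which esterifies cholesterol, at 4.44 and 89.8 CPM. Srebf1 was level, at 43.5 and 43.3 CPM, and Nr1h2, an oxysterol receptor gene, was at 36.4 and 24.3 CPM. Sebocyte markers summed to 181 CPM in young WT, 147 in adult WT and 541 in adult Lang-DTA in this gate of 51, 78 and 91 cells, and their part in the difference was not tested.

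In Prox1 cells Scarb1 was at 54.3 CPM in young WT, 108 in adult WT and 35.8 in adult Lang-DTA. Apoe was at 290 CPM in adult WT and 163 in adult Lang-DTA. Srebf1 was higher in adult Lang-DTA, at 14.9 and 30.7 CPM, and so was the exporter Abcg1, at 47.8 and 81.5 CPM. These stand in a gate where 15.9% of genes were 1.5-fold lower and 21.4% higher.

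In Cd207 cells the desaturase and elongase differed with age, while none of 7 tested members passed 1.5-fold. Scd1 was at 10.7 CPM in young WT and 133 in adult WT, and Elovl6 at 12.7 and 91.4 CPM. Of 9 tested proliferation genes 7 were 1.5-fold lower in adult WT in that gate, beside 4.83% of genes. Cycling cells there were 39.1% in young WT and 15.5% in adult WT.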
